A study of Mus musculus with 24 samples.

Results

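Wide distal peaks are stretches of open chromatin that are both long and far from any known start of a protein-coding transcript. They were taken from the consensus peak table of an ATAC-seq experiment, in which the Tn5 transposase inserts sequencing adapters into accessible DNA and a peak is a region with many insertions. A consensus peak counted as wide and distal when it lay on chromosomes 1 to 19, had a length of 2000 bp or more and was more than 5 kb from every transcription start site (TSS) of the protein-coding transcripts in the GENCODE vM21 basic annotation. The rule used position and length only, and it picked 3500 of 184158 consensus peaks, of which 179185 were autosomal and 148533 autosomal and distal. Consensus peaks were built across all 24 libraries, so all 4 groups shaped their length. All 24 libraries came from mouse bone marrow-derived macrophages (BMDMs), 6 in each of 4 groups, named here by genotype and treatment: WT unstimulated and WT LPS, AhR-KO unstimulated and AhR-KO LPS. WT cells came from C57BL/6J mice and AhR-KO cells from B6.129-Ahr tm1Bra/J mice, which lack the aryl hydrocarbon receptor (AhR) in every cell, so the knockout was present before and during macrophage development. The donors were young adults of both sexes, and each group held cells of 6 animals in a single experiment. Whether unstimulated and LPS cultures shared animals is not given in the sources used here. Every culture received GM-CSF at 10 ng/ml and TGF-β at 2 ng/ml, which gives macrophages resembling those of the lung alveoli. The LPS groups received 97 EU/ml LPS, the bacterial ligand of Toll-like receptor 4, for 24 h from day 6. The treatment protocol, attached to all libraries alike, also lists a 10 min exposure to the calcium ionophore A23187 at 5 µM.

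Distal open regions are mostly enhancers, DNA elements that raise transcription of a gene from a distance. In macrophages such elements are held open by the lineage factor PU.1 together with C/EBP and AP-1 proteins, and after LPS they are joined by NF-kB and by interferon-activated STAT and IRF factors. Long or clustered open regions are often found at genes of cell identity or of strong inducible responses. Once a ligand binds it, AhR enters the nucleus, pairs with ARNT and binds DNA containing the letters GCGTG. It is highly expressed in barrier-tissue myeloid cells and induces, among other genes, its own repressor Ahrr.

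The sequences below are shown because they come from members on which the comparisons turn: the member with the smallest adjusted p in a genotype or LPS comparison, or in the interaction. Each is the 200-base window of its peak that held most matches to 7 short motifs, so the windows were chosen for their matches. Capitals mark matches on either strand to GAGGAA (PU.1 and other ETS factors), TGANTCA (AP-1), TTGCNNAA (C/EBP), GGGANNTTC (NF-kB), GAAANNGAA (interferon-stimulated response element, ISRE), GCGTG (AhR core) or TNGCGTG (AhR long), and neighbouring or overlapping matches run together. All are the plus strand of mm10 (assembly GRCm38.p6), and the reported positions are 1-based. The Lsm6 window is chr8:78741092-78741291, the Dcstamp window chr15:39763963-39764162, the Exoc3 window chr13:74245612-74245811, the Stk24 window chr14:121421953-121422152, the Mrpl39 window chr16:84680525-84680724 and the Fli1 window chr9:32510380-32510579.
Lsm6: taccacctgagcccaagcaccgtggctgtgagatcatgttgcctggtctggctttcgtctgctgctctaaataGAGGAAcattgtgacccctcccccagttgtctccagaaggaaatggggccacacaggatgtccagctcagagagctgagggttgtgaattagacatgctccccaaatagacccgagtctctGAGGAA
Dcstamp: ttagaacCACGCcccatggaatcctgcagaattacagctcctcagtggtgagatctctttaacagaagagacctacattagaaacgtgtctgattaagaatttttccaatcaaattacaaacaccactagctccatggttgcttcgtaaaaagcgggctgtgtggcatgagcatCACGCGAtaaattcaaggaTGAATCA
Exoc3: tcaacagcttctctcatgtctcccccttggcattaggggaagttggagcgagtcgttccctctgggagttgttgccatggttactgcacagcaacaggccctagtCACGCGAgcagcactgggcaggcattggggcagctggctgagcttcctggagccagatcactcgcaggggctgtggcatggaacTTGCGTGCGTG
Stk24: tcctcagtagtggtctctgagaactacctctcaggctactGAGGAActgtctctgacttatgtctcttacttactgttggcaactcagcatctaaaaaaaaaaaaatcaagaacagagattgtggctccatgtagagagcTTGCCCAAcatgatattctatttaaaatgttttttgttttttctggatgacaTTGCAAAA
Mrpl39: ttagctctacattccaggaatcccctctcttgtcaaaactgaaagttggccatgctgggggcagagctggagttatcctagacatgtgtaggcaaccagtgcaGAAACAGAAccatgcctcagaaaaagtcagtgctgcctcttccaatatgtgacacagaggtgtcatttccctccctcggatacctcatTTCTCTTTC
Fli1: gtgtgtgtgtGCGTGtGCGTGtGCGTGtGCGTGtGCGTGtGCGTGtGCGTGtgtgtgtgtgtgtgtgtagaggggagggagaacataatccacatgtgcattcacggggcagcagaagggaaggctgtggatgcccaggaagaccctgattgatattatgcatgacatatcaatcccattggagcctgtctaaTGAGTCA
The Lsm6 window, from a member lower in AhR-KO, held 2 PU.1 matches and no AhR core. The Exoc3 window, from a member lower in AhR-KO that lies inside the Ahrr gene, held 3 AhR core matches, and these are all that the whole peak held. The Dcstamp window, from a member higher in AhR-KO, held 2 AhR core matches and 1 AP-1 match. The Fli1 window held 7 AhR core matches inside a GT-rich repeat, plus 1 AP-1 match. The Stk24 window, lower with LPS, held 1 PU.1 and 2 C/EBP matches, whereas the Mrpl39 window, higher with LPS, held 2 ISRE matches. A match is a run of letters and no measure of binding.

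The 3500 wide distal peaks had a median length of 2309.5 bp and reached 5616 bp, against a median of 506 bp for the other 145033 distal peaks. The files' length exceeds by 1 the number of bases in the printed interval. By their centres, 1698 (48.5%) were intronic, 1687 (48.2%) intergenic, 72 in a UTR and 43 in a coding exon, and 340 lay over a long non-coding RNA gene. Each peak was named by the protein-coding gene with the nearest TSS, at a median distance of 28745 bp. That naming says where a peak lies and not which gene it acts on: 1813 centres fell inside a protein-coding gene, and for 1431 of them (78.9%) it was the gene with the nearest TSS. The members were spread over 2564 genes, 1937 of which had 1 member and 429 had 2. Klf6, a zinc-finger factor induced in inflammatory macrophages, had 8 members and Klhl25, a ubiquitin ligase adaptor, had 7. The other genes with 6 members each included Inhba, Ctsc, Dock10, Gsap, Prex1 and Sox5.

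The longest members were not the most accessible ones. The longest was at Hnrnpa3, an RNA-binding protein (chr2:75669408-75675022), followed by members at Zfp978, Rsph4a, Carhsp1 and Gm9195, all over 5 kb. Levels are given as CPM, the count scaled to a normalized library total of 1e6. At Hnrnpa3 they were 10.5 to 13.7 CPM (median 11.8) in the WT unstimulated libraries, 13.6 to 21.6 (median 16.1) in AhR-KO unstimulated, 19.5 to 22.8 (median 20.6) in WT LPS and 18.96 to 30.7 (median 30.3) in AhR-KO LPS. In WT every LPS library lay above every unstimulated one, with a log2 difference of 0.81 ± 0.13 (SE, adjusted p = 2.83e-06). In AhR-KO the difference was 0.67 ± 0.12 (SE, adjusted p = 1.97e-05), and the libraries of both groups overlapped. Per kb of length, the highest mean CPM was 42.4 at Pkdcc, a secreted kinase, followed by 37.8 at Rab20, 37.6 at the fatty acid elongase Elovl5, 36.8 at the glucose transporter Slc2a1 and 35.8 at Acod1, which makes itaconate. The median over all members was 4.37 CPM per kb, against 3.04 for other distal peaks and 13.5 for peaks over a TSS. At the length limit, the members just inside (2000 bp; Camk1g, Cd34 and Ahr) had 3.14, 4.26 and 5.72 CPM per kb, and the distal peaks 1 bp shorter (Il1r1, Etv1 and Lyst) had 8.30, 4.33 and 5.43. At the distance limit, members near Asph, 2610528J11Rik and Xbp1 lay 5013, 5015 and 5016 bp from a TSS, and peaks near Pacsin3, Vps13d and Cttnbp2nl fell just inside it at 4992, 4991 and 4984 bp.

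Total counts in consensus peaks ranged from 8.54 to 23.1 M in WT unstimulated, 18.9 to 25.7 in AhR-KO unstimulated, 25.1 to 34.6 in WT LPS and 22.4 to 28.5 in AhR-KO LPS, M being counts in units of 1e6, so that depth moved with LPS and with genotype. The lowest was WT unstimulated replicate 5. Wide distal peaks took 5.16% ± 0.08, 5.31% ± 0.05, 5.31% ± 0.08 and 5.48% ± 0.10 of these counts in the same order (SD, n = 6 each). Peaks were present over the TSS of 6 of 6 macrophage and 6 of 6 alveolar macrophage markers and of none of the B cell or T cell markers. The summed alveolar markers read 56.9 to 66.6 CPM per kb in WT unstimulated and 83.8 to 106 in AhR-KO unstimulated, and 51.3 to 61.0 and 62.7 to 85.0 with LPS. The dendritic cell markers (4 of 5 with a peak, none at Xcr1, and Ccr7 included) summed to 14.3 to 24.8, 13.3 to 18.4, 18.9 to 34.9 and 12.4 to 17.7 in the order of the groups above. The mast cell marker Kit, the only 1 of 4 with a peak, read 3.78 to 5.47, 1.67 to 2.24, 4.63 to 6.71 and 2.31 to 2.96. The neutrophil markers (2 of 5 with a peak, S100a8 and Camp) summed to 26.9 to 36.3, 31.7 to 35.5, 28.7 to 43.1 and 36.5 to 42.7. These 2 went opposite ways with LPS. The Camp peak rose by 0.86 in WT and 1.30 in AhR-KO (log2), whereas the S100a8 peak had -0.31 and -0.48 and was not called. The fibroblast markers had a peak at 1 of 3 genes (6.85 to 12.4 over all libraries) and the erythroid ones at 1 of 3 (1.04 to 3.05). In bulk libraries fewer cells of a type and less open chromatin per cell cannot be told apart, and the part of these shifts in the results was not tested.

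Most wide distal peaks were wide in at least some single libraries rather than only after merging. The authors called broad peaks in each library with MACS2, and 2161 members (61.7%) held a single broad peak of 2000 bases or more in at least 1 library, whereas 1339 held none. Only 17 had such a peak in all 24 libraries and 218 in 12 or more. A broad peak of any length was present in all 24 libraries at 2478 members (70.8%). Broad peaks covered 50% or more of the member at 1177 ± 305 members in WT unstimulated (range 696 to 1518), 1484 ± 77 in AhR-KO unstimulated (1345 to 1550), 2138 ± 186 in WT LPS (1912 to 2332) and 1963 ± 216 in AhR-KO LPS (1620 to 2177), with the SD over 6 libraries each. Every LPS library of a genotype lay above every unstimulated library of that genotype, and in WT the same held for total counts. In AhR-KO total counts of LPS and unstimulated libraries overlapped. The part of depth in the width was not tested. In WT, 91 members had a broad peak in 0 of 6 unstimulated and 6 of 6 LPS libraries and 5 the reverse, and in AhR-KO the counts were 96 and 6. A member without a broad peak in a group passed the length rule through the libraries of other groups. These counts and the cover are therefore not independent of the rule and are descriptions only.

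**Figure D1:**
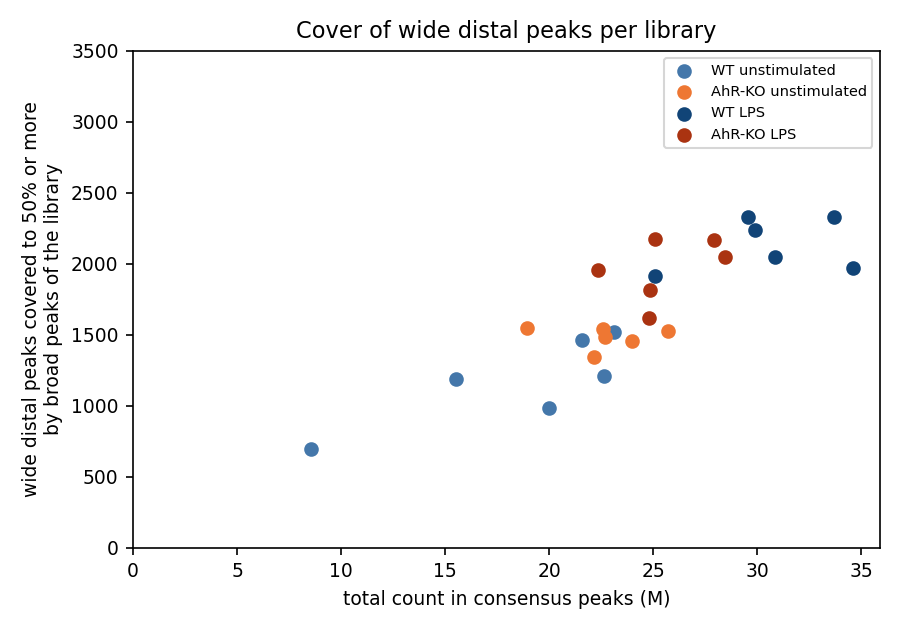
Wide distal peaks with at least 50% of their bases under a library's broad peaks (y axis, number of members) against the library's total count in consensus peaks (x axis, M), where each point is 1 of the 24 libraries, coloured by group. WT unstimulated replicate 5 has the lowest total (8.54 M) and the lowest number of half-covered members (696), and the LPS libraries lie at 1620 or more.

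Peaks were called differentially accessible (DARs) when the fold difference reached 1.5 and the adjusted p was 0.05 or less in edgeR's quasi-likelihood test. The test covered all 174193 peaks that passed the filter on low counts, which all 3500 members passed. Without stimulation, 240 members were lower and 275 higher in AhR-KO than in WT (14.7%, against 22.6% of all tested peaks, of which 12.6% lower and 9.95% higher). With LPS, 243 were lower and 361 higher (17.3%, against 26.5%, of which 13.1% lower and 13.4% higher). LPS lowered 499 and raised 780 in WT (36.5%, against 47.0%, of which 21.6% lower and 25.4% higher), and in AhR-KO it lowered 613 and raised 945 (44.5%, against 48.8%, of which 21.5% lower and 27.3% higher). The interaction, the genotype difference with LPS minus that without, gave 143 lower and 245 higher (11.1%, against 10.4%, of which 4.58% lower and 5.83% higher). In the 4 comparisons of 2 groups the share called among wide distal peaks was below that among all tested peaks. With size factors of the RLE method the unstimulated genotype split was 202 lower to 354 higher, and with DESeq2 202 to 355, so that 36.3% of the DARs were lower in place of 46.6%. The interaction split was 174 to 211 with RLE and 183 to 210 with DESeq2, in place of 143 to 245. For LPS in AhR-KO the splits were 668 to 885 and 669 to 886, in place of 613 to 945.

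Wide distal peaks had smaller folds than the whole class of other distal peaks but more often a small p. An adjusted p of at most 0.05 alone was reached by 52.3%, 56.2%, 72.0%, 76.3% and 25.3% of members in the comparisons as ordered above, against 38.9%, 45.5%, 65.0%, 66.2% and 14.5% of other distal peaks. A fold of 2 or more was reached by 3.03%, 4.54%, 16.6%, 22.2% and 2.37% of members and by 11.4%, 12.7%, 31.7%, 32.95% and 8.33% of other distal peaks. The 24141 other distal peaks of 1000 bp or more lay closer to the members than the whole class did. Of these, 48.4%, 53.5%, 72.3%, 74.5% and 21.8% had an adjusted p of at most 0.05, which for LPS in WT exceeded the members' share. They reached a fold of 2 in 6.74%, 7.79%, 23.7%, 27.6% and 3.85%. A more frequent small p was thus not particular to wide distal peaks. Peaks over a TSS had fewer DARs, from 3.64% in the interaction to 15.8% for LPS in AhR-KO. The level of a peak moved with this: within bands of mean CPM from 10 to 20, DARs made up 14.2% of 1013 wide and 14.9% of 8839 other distal peaks in the unstimulated genotype comparison, and 40.9% and 41.2% for LPS in WT. Under 5 CPM the shares were 15.99% and 26.1%, and 38.1% and 52.8%. From 20 to 40 CPM the order turned, with 9.92% of wide and 7.33% of other distal peaks, and 31.5% and 27.1%. In that band the median absolute log2 difference was larger in wide peaks too, at 0.214 against 0.202 and 0.380 against 0.341. The other comparisons did not all keep this order. For genotype with LPS wide peaks had the larger share in every band above 5 CPM. There it was 21.6% against 20.4% from 5 to 10 CPM, and 26.9% against 32.1% under 5 CPM. The interaction gave 17.6% of wide and 11.4% of other distal peaks under 5 CPM, and 8.09% and 8.36% from 10 to 20 CPM. The 6 libraries of a group lay wholly outside the 6 of the other at 1028 members (29.4%) for genotype without LPS, 998 (28.5%) for genotype with LPS, 1709 (48.8%) for LPS in WT and 2032 (58.1%) for LPS in AhR-KO, where all tested peaks gave 21%, 19.6%, 38.7% and 45.6%. Other distal peaks of 1000 bp or more gave 28.1%, 25.7%, 48.7% and 56.9%, close to the members. Members with and without a single broad peak of 2000 bases had DAR shares of 14.2% and 15.5%, 16.9% and 17.8%, 36.9% and 35.9%, and 44.1% and 45.1% in the 4 comparisons of 2 groups.

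**Figure D2:**
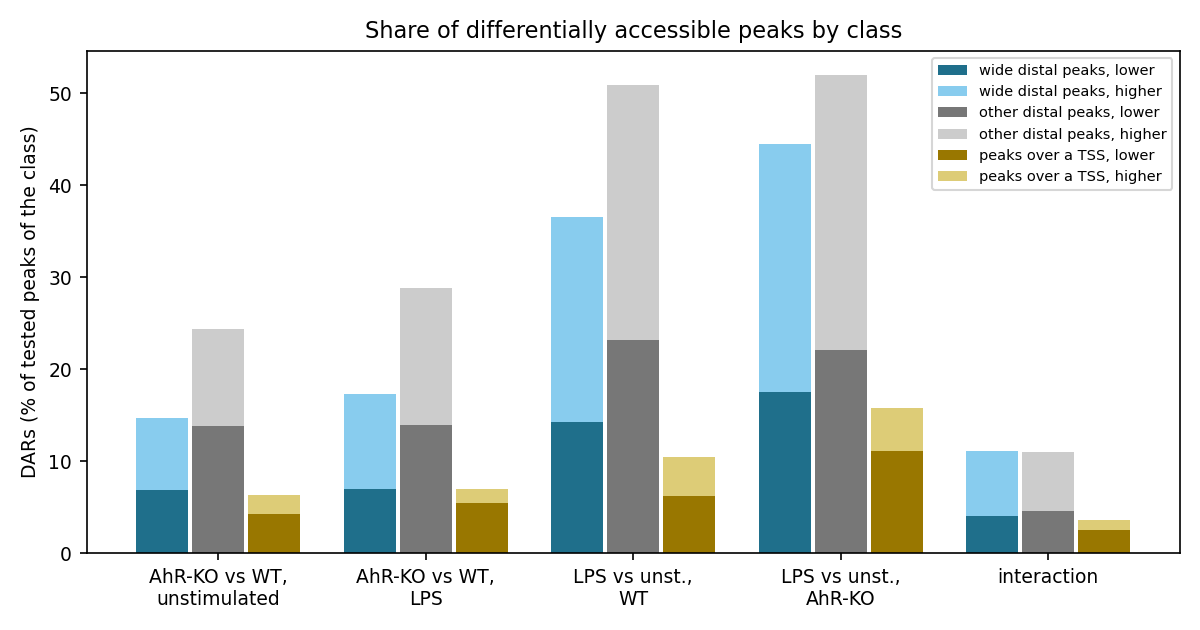
Share of peaks that were DARs (y axis, percent) in wide distal peaks, other distal peaks and peaks over a TSS, for the 5 comparisons. Bars are stacked upward from 0, with lower DARs at the bottom in the darker shade and higher DARs on top in the lighter shade. In the unstimulated genotype comparison the 3 classes had 14.7%, 24.4% and 6.30% DARs, and for LPS in WT 36.5%, 50.9% and 10.4%.

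LPS opened and closed many of the same wide distal peaks in both genotypes, whose comparisons share no library. 675 members were raised in both, which is 86.5% of those raised in WT and 71.4% of those raised in AhR-KO, and 392 were lowered in both, 78.6% and 63.9%. Over all tested peaks the corresponding shares were 82.4% and 76.6% for raised peaks, and 72.3% and 72.7% for lowered ones. DARs in WT alone numbered 103 higher and 106 lower, and in AhR-KO alone 269 higher and 219 lower. 3 members moved in opposite directions. A call in only 1 genotype does not show that the genotypes differ: of the 269 members raised in AhR-KO alone, 90 passed the interaction test, and of the 219 lowered in AhR-KO alone, 51 did. The genotype comparisons, which share no library either, had 101 members lower in AhR-KO in both treatments (2.89%, against 6.95% of all tested peaks) and 140 higher (4%, against 5.08%), with 3 opposite. 1471 members (42.0%) were DARs in none of the 4 comparisons of 2 groups, and 91 (2.60%) in all 4, against 32.5% and 5.11% of all tested peaks.

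**Figure D3:**
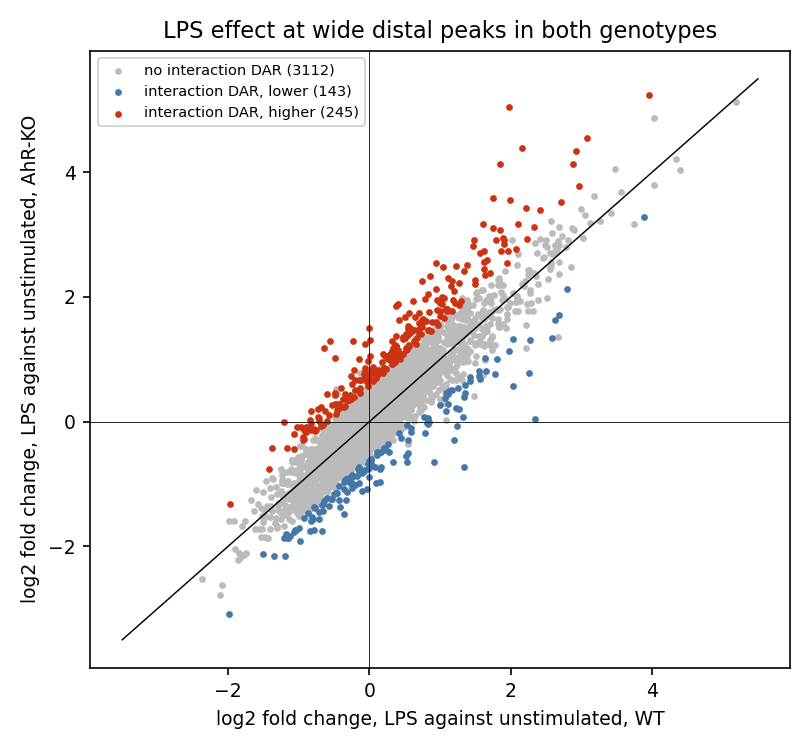
Log2 difference with LPS in WT (x axis) and in AhR-KO (y axis) for each of the 3500 wide distal peaks, coloured by the interaction: 143 lower, 245 higher and 3112 not called. The solid diagonal marks equal differences in both genotypes.

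Among the members that fell with LPS, those with the smallest adjusted p in WT or AhR-KO lay at Stk24, Fam110b, Tfpi, Pex5, Il12b, St8sia1 and Ino80d. At Tfpi, whose protein inhibits tissue factor and so coagulation, the member lay 53478 bp upstream (chr2:84530254-84532636) and held 25.8 to 30.8 CPM (median 28.2) in the WT unstimulated libraries, 23.6 to 30.9 (median 25.997) in AhR-KO unstimulated, 6.82 to 8.66 (median 8.15) in WT LPS and 5.11 to 6.60 (median 5.83) in AhR-KO LPS. The LPS libraries lay far below the unstimulated ones, with log2 differences of -1.84 ± 0.08 (SE, adjusted p = 2.26e-21) in WT and -2.19 ± 0.08 (SE, adjusted p = 2.27e-23) in AhR-KO. At Stk24, a kinase of the germinal centre family, the levels were 43.7 to 51.4 CPM (median 46.5) in the WT unstimulated libraries, 55.1 to 63.02 (median 59.2) in AhR-KO unstimulated, 16.4 to 18.3 (median 16.7) in WT LPS and 14.6 to 17.9 (median 15.99) in AhR-KO LPS. No LPS library reached an unstimulated one, and the log2 differences were -1.46 ± 0.06 (SE, adjusted p = 5.58e-22) in WT and -1.87 ± 0.06 (SE, adjusted p = 2.74e-25) in AhR-KO. The member named for Il12b, the subunit shared by IL-12 and IL-23, lay 225066 bp away and fell by similar amounts, -1.81 ± 0.08 and -1.68 ± 0.08 (log2 ± SE). Pex5, the import receptor of peroxisomes, had -1.41 ± 0.06 and -1.73 ± 0.06. Fam110b had -1.61 ± 0.07 and -1.72 ± 0.07, the sialyltransferase gene St8sia1 -1.02 ± 0.06 and -1.46 ± 0.06, and the chromatin remodeller subunit Ino80d -1.84 ± 0.08 and -2.11 ± 0.08, all on the log2 scale with SE.

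The member with the smallest adjusted p for a rise with LPS in both genotypes was named for Mrpl39 but lay 20502 bp upstream of Mir155hg, the host of the inflammation-induced microRNA miR-155 (Mir155hg at chr16:84703167-84715245, plus strand). This member (chr16:84680380-84682665) held 1.98 to 2.65 CPM (median 2.28) in the WT unstimulated libraries, 2.74 to 4.75 (median 4.32) in AhR-KO unstimulated, 40.9 to 52.5 (median 49.4) in WT LPS and 58.7 to 73.2 (median 67.5) in AhR-KO LPS. Unstimulated and LPS libraries were far apart, with log2 differences of 4.40 ± 0.10 (SE, adjusted p = 1.04e-28) in WT and 4.03 ± 0.09 (SE, adjusted p = 3.79e-29) in AhR-KO. At Inhba, which encodes the subunit of activin A, the member 17286 bp from the TSS (chr13:16031762-16033892) held 3.50 to 4.97 CPM (median 4.26) in the WT unstimulated libraries, 7.11 to 8.86 (median 8.13) in AhR-KO unstimulated, 28.5 to 38.01 (median 30.1) in WT LPS and 61.9 to 71.3 (median 68.3) in AhR-KO LPS. The 4 groups did not overlap, and LPS raised it by 2.89 ± 0.08 (SE, adjusted p = 1.02e-25) in WT and 3.08 ± 0.07 (SE, adjusted p = 4.95e-28) in AhR-KO on the log2 scale. Members at the histone H2A deubiquitinase Mysm1 (2.62 ± 0.07 in WT and 2.73 ± 0.07 in AhR-KO, log2 ± SE), the BMP antagonist Chrdl2 (2.69 ± 0.07 and 2.37 ± 0.07), the endosomal GTPase Rab22a (2.81 ± 0.09 and 2.91 ± 0.08) and the integrin subunit Itgav (2.71 ± 0.09 and 3.53 ± 0.09) rose as well.

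**Figure D4:**
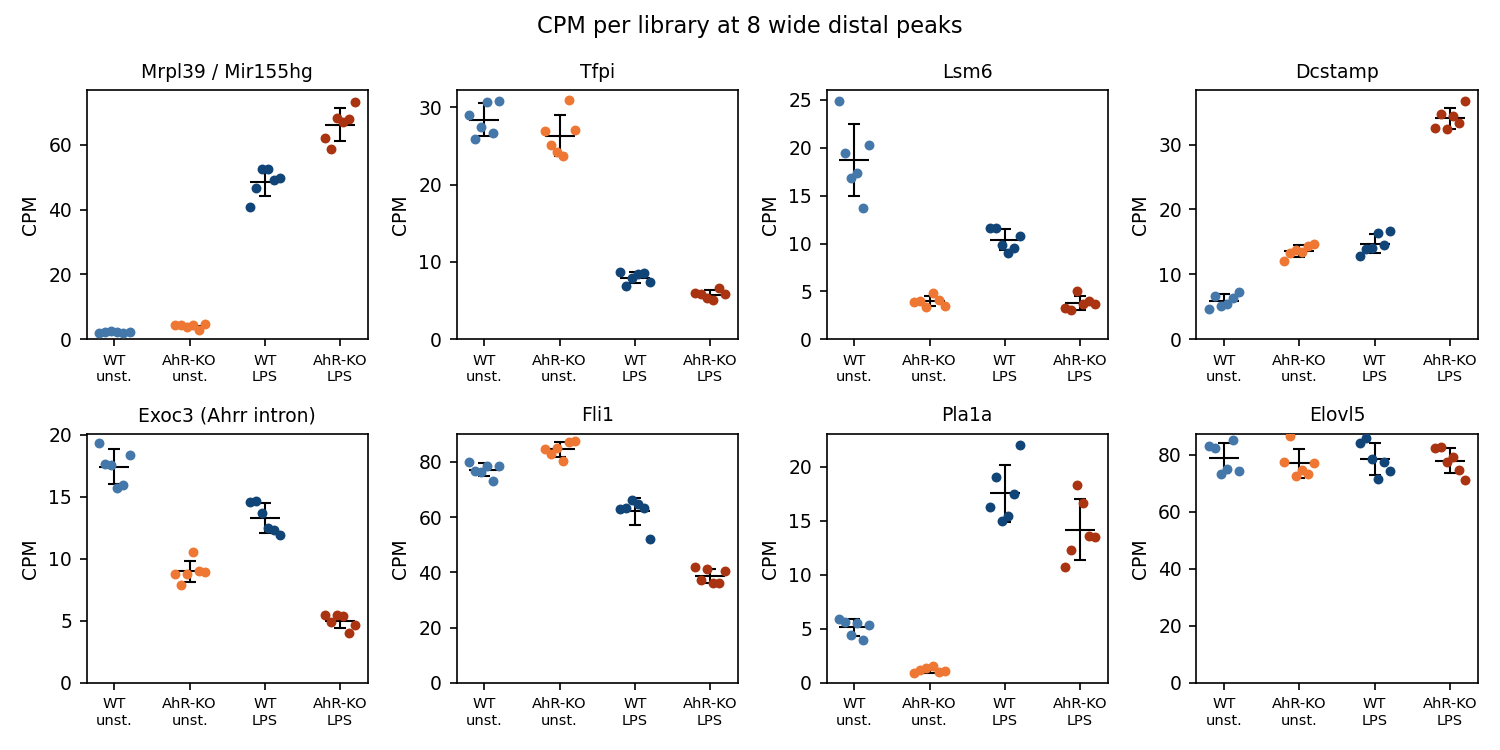
CPM of 8 wide distal peaks (y axes) in the 4 groups (x axes), with points for single libraries and the mean and SD of 6. The Mrpl39 member lies near 2 to 5 CPM unstimulated and 41 to 73 with LPS, Lsm6 is lowest in both AhR-KO groups, and Elovl5 sits at 71.1 to 86.4 in all 24 libraries.

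In unstimulated cells the member with the smallest adjusted p for a decrease in AhR-KO lay 70122 bp from Lsm6, a protein of RNA decay and splicing complexes (chr8:78740999-78743092). It held 13.7 to 24.9 CPM (median 18.4) in the WT unstimulated libraries, 3.38 to 4.87 (median 3.95) in AhR-KO unstimulated, 9.06 to 11.7 (median 10.3) in WT LPS and 3.06 to 5.06 (median 3.65) in AhR-KO LPS. AhR-KO libraries lay below WT libraries in both treatments, by a log2 difference of -2.25 ± 0.12 (SE, adjusted p = 3.48e-16) without and -1.47 ± 0.12 (SE, adjusted p = 6.13e-12) with LPS on the log2 scale. Klhl25 held 34.2 to 44.6 CPM (median 39.2) in the WT unstimulated libraries and 15.97 to 20.8 (median 17.8) in AhR-KO unstimulated, with a difference of -1.13 ± 0.07 (SE, adjusted p = 8.11e-15). With LPS the difference there was -0.33 ± 0.07 (SE, adjusted p = 6.62e-05), below the fold threshold. Members near Slc24a2, a sodium-calcium exchanger (-1.41 ± 0.10, log2 ± SE), Plekhf1, an endosomal protein (-1.06 ± 0.07), and Agr3, of the disulfide isomerase family (-1.49 ± 0.11), were lower as well. The Agr3 member lay within 20 Mb of Ahr.

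On the other side, the member at Dcstamp, which macrophages need to fuse into giant cells and osteoclasts, had the smallest adjusted p for an increase in AhR-KO (chr15:39763541-39766000). It held 4.62 to 7.28 CPM (median 5.91) in the WT unstimulated libraries, 12.1 to 14.6 (median 13.6) in AhR-KO unstimulated, 12.8 to 16.6 (median 14.3) in WT LPS and 32.4 to 36.7 (median 33.8) in AhR-KO LPS. Both AhR-KO and LPS raised it. The AhR-KO difference was 1.199 ± 0.09 (SE, adjusted p = 5.31e-13) without and 1.21 ± 0.07 (SE, adjusted p = 1.24e-14) with LPS, and LPS gave 1.31 ± 0.09 in the WT and 1.32 ± 0.08 in the AhR-KO cells (log2 ± SE). The intronic member of Tiam1, an activator of the GTPase Rac, held 5.87 to 7.59 CPM (median 6.73) in the WT unstimulated libraries and 12.3 to 15.6 (median 13.1) in AhR-KO unstimulated, and the groups did not overlap. Its AhR-KO difference was 0.996 ± 0.08 (SE, adjusted p = 1.44e-12) unstimulated and 0.91 ± 0.07 (SE, adjusted p = 8.71e-13) with LPS. Members at 1700061G19Rik (0.93 ± 0.07, log2 ± SE), at the mitotic gene Cdca8 (0.91 ± 0.07) and near the phosphatase gene Ptpn1 (1.10 ± 0.09) were higher too.

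With LPS, the member with the smallest adjusted p for a decrease in AhR-KO carried the name of Exoc3 but lay in an intron of Ahrr, the AhR repressor gene (chr13:74245376-74248251). It held 15.7 to 19.3 CPM (median 17.6) in the WT unstimulated libraries, 7.90 to 10.5 (median 8.86) in AhR-KO unstimulated, 11.9 to 14.6 (median 13.1) in WT LPS and 4.03 to 5.46 (median 5.13) in AhR-KO LPS. In both treatments the genotypes did not overlap, and AhR-KO was lower by a log2 difference of -0.96 ± 0.08 (SE, adjusted p = 2.03e-11) unstimulated and -1.42 ± 0.09 (SE, adjusted p = 8.52e-15) with LPS on the log2 scale. A further member in Ahrr (chr13:74272453-74274784) held 6.15 to 7.91 CPM (median 6.94) in the WT unstimulated libraries, 3.46 to 5.43 (median 4.35) in AhR-KO unstimulated, 17.02 to 22.5 (median 21.2) in WT LPS and 5.54 to 9.73 (median 8.28) in AhR-KO LPS and was lower in AhR-KO by a log2 difference of -0.66 ± 0.14 (SE, adjusted p = 2.57e-04) without and -1.40 ± 0.12 (SE, adjusted p = 4.52e-11) with LPS. The intergenic member named for Ets1, a factor of the ETS family, held 12.4 to 16.1 CPM (median 15.4) in the WT unstimulated libraries, 12.01 to 14.99 (median 13.02) in AhR-KO unstimulated, 24.7 to 28.2 (median 24.98) in WT LPS and 10.3 to 12.9 (median 11.8) in AhR-KO LPS. Only the WT LPS libraries stood apart there, above the other 3 groups, and the AhR-KO difference with LPS was -1.13 ± 0.07 (SE, adjusted p = 2.03e-14). Members in introns of Rcsd1 (-0.98 ± 0.07, log2 ± SE) and of the ETS factor gene Fli1 (-0.89 ± 0.06 and -1.04 ± 0.07) were lower as well.

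The increases with the smallest adjusted p in AhR-KO under LPS were at Ahr itself (2 members), Inhba, Axin2 and Dcstamp. At Inhba the AhR-KO difference was 1.09 ± 0.07 (SE, adjusted p = 6.20e-15) on the log2 scale with LPS and 0.91 ± 0.09 (SE, adjusted p = 5.99e-10) without. Near Axin2, an inhibitor of Wnt signalling, the levels were 2.99 to 4.10 CPM (median 3.33) in the WT unstimulated libraries, 3.86 to 4.91 (median 4.24) in AhR-KO unstimulated, 4.28 to 6.00 (median 4.64) in WT LPS and 12.5 to 14.8 (median 14.2) in AhR-KO LPS. The AhR-KO LPS libraries lay above all others, and the AhR-KO difference with LPS was 1.505 ± 0.09 (SE, adjusted p = 1.24e-14).

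The interaction asks whether the LPS response differs between genotypes. The smallest p-values belonged to Fli1, Selenof, Hs3st3b1, Ggta1 and Ets1 among lower members, and to Agr3, Ahr, Pla1a, Pgm1 and Mob3b among higher ones. Hs3st3b1, a heparan sulfate sulfotransferase gene, held 41.99 to 51.9 CPM (median 46.8) in the WT unstimulated libraries, 47.4 to 58.2 (median 50.1) in AhR-KO unstimulated, 25.8 to 33.2 (median 29.1) in WT LPS and 12.3 to 17.6 (median 15.8) in AhR-KO LPS at its intronic member. LPS lowered it further in AhR-KO (-1.75 ± 0.08) than in WT (-0.67 ± 0.08; log2 ± SE), and the interaction was -1.08 ± 0.11 (SE, adjusted p = 2.48e-08). Selenof, an endoplasmic reticulum selenoprotein gene, had an interaction of -0.78 ± 0.08 (SE, adjusted p = 1.63e-08). In Ggta1, which makes the alpha-gal epitope, the interaction was -0.82 ± 0.09 (SE, adjusted p = 4.67e-08). Pla1a, a phospholipase acting on phosphatidylserine, held 3.96 to 5.94 CPM (median 5.41) in the WT unstimulated libraries, 0.944 to 1.52 (median 1.10) in AhR-KO unstimulated, 14.99 to 21.97 (median 16.9) in WT LPS and 10.7 to 18.3 (median 13.5) in AhR-KO LPS. Unstimulated AhR-KO cells were lowest there, and the LPS rise was 1.75 ± 0.12 in WT and 3.59 ± 0.15 in AhR-KO, with an interaction of 1.84 ± 0.20 (SE, adjusted p = 9.61e-08). Near Pgm1, a phosphoglucomutase gene, LPS raised the AhR-KO libraries by 1.01 ± 0.12 (SE, adjusted p = 2.16e-09) and in WT the value was -0.49 ± 0.12 (SE, adjusted p = 6.02e-04), under the fold threshold, with an interaction of 1.503 ± 0.17 (SE, adjusted p = 1.92e-07). Mob3b had 1.29 ± 0.16 in AhR-KO and -0.56 ± 0.14 in WT (log2 ± SE), the latter no DAR, and an interaction of 1.85 ± 0.21 (SE, adjusted p = 2.99e-07).

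3 wide distal peaks were assigned to Ahr. None of them covered exon 2 of Ahr (chr12:35526681-35526868), so they check nothing about an allele altered there. The member downstream of the gene (chr12:35494922-35497809) held 3.36 to 4.56 CPM (median 4.02) in the WT unstimulated libraries, 4.47 to 5.91 (median 5.05) in AhR-KO unstimulated, 2.30 to 3.10 (median 2.47) in WT LPS and 8.82 to 15.4 (median 11.1) in AhR-KO LPS. AhR-KO LPS libraries were above the rest, with a genotype difference of 2.20 ± 0.12 (SE, adjusted p = 2.64e-16) with LPS. The member over a coding exon of Ahr (chr12:35513939-35516182) held 1.19 to 1.98 CPM (median 1.61) in the WT unstimulated libraries, 4.64 to 7.50 (median 5.51) in AhR-KO unstimulated, 1.17 to 2.18 (median 1.45) in WT LPS and 7.03 to 11.9 (median 9.47) in AhR-KO LPS and exceeded WT in AhR-KO cells by 1.89 ± 0.16 (SE, adjusted p = 1.31e-11) without and 2.63 ± 0.14 (SE, adjusted p = 5.48e-16) with LPS. The third, at the length limit, was no DAR in any comparison. Around Ahr the AhR-KO strain can carry DNA from the 129 strain in which the allele was made. Within 20 Mb of Ahr 44 members gave 4 lower and 8 higher DARs without LPS (27.3%) and 0 and 10 with LPS (22.7%). The 103 members elsewhere on chromosome 12 gave 9 and 8 (16.5%), and 12 and 3 (14.6%). The 3353 members on the other chromosomes gave 227 and 259 (14.5%), and 231 and 348 (17.3%). Among all tested peaks the shares were 22.6% and 26.5%. Strain and deletion cannot be told apart near the gene.

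Some members stood close together. Joining members with gaps of up to 10 kb gave 171 stretches of 2 or more (359 members), 14 of them with 3 or more (45 members), and 3141 members stood alone. These stretches, and those named here, were chosen after their values had been seen. The stretch at Nos2, the inducible nitric oxide synthase gene, had 4 members, 3 of them in introns and 1 beyond the gene, named for Lgals9. Its first member (chr11:78931008-78934011) held 0.330 to 1.28 CPM (median 0.526) in the WT unstimulated libraries, 0.261 to 0.703 (median 0.414) in AhR-KO unstimulated, 1.498 to 3.96 (median 2.19) in WT LPS and 7.53 to 19.6 (median 14.1) in AhR-KO LPS. AhR-KO LPS libraries lay above all others, and at the 4 members the AhR-KO difference with LPS was 2.56 ± 0.23, 1.45 ± 0.12, 1.26 ± 0.13 and 2.40 ± 0.21 (log2 ± SE), all DARs. In WT the LPS differences were 1.98, 4.02, 1.16 and 1.85, and in AhR-KO cells 5.06, 4.86, 2.17 and 4.13, all DARs. 3 of the 4 were interaction DARs, with 3.07, 1.02 and 2.28 on the log2 scale.

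The 3 members at Gbp5 and Gbp7, interferon-induced guanylate-binding protein genes, behaved alike. The member in Gbp5 (chr3:142510260-142513217) held 1.12 to 1.98 CPM (median 1.19) in the WT unstimulated libraries, 0.922 to 1.35 (median 1.25) in AhR-KO unstimulated, 2.56 to 7.07 (median 4.15) in WT LPS and 8.08 to 12.6 (median 10.04) in AhR-KO LPS. Both LPS groups lay above both unstimulated groups. In WT LPS raised the 3 members by 1.74, 1.90 and 2.89, in AhR-KO by 3.11, 2.91 and 4.13, and the interactions were 1.36, 1.01 and 1.24, all DARs on the log2 scale. In Fli1 4 intronic members fell together: with LPS they were lower in AhR-KO by a log2 difference of -0.89 ± 0.06, -0.68 ± 0.05, -1.04 ± 0.07 and -0.78 ± 0.10 (log2 ± SE), and LPS lowered all 4 in AhR-KO, by a log2 difference of -1.16 ± 0.06, -1.13 ± 0.05, -0.76 ± 0.07 and -0.73 ± 0.11. In WT none of the 4 was an LPS DAR, as all stayed under the fold threshold. The log2 differences there were -0.50 (adjusted p = 7.53e-10), -0.32 (1.76e-06), -0.01 (0.874) and -0.30 (0.0093). Of the 4, 3 were interaction DARs, and the last had an interaction of -0.44 that was not called. The widest of them (chr9:32507416-32511018) held 72.9 to 80.04 CPM (median 77.6) in the WT unstimulated libraries, 80.3 to 87.5 (median 84.8) in AhR-KO unstimulated, 52.1 to 66.1 (median 63.1) in WT LPS and 35.99 to 41.8 (median 38.8) in AhR-KO LPS, with the AhR-KO LPS libraries below all others.

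The Mir155hg stretch held 4 members between the start of that gene and Mrpl39. LPS raised the 1 over the Mir155hg start (chr16:84702623-84705210) by 1.73 ± 0.08 (SE, adjusted p = 1.33e-19) in WT and 2.19 ± 0.08 (SE, adjusted p = 1.48e-22) in AhR-KO. The next, within Mir155hg, rose by 3.56 and 3.68 on the log2 scale, the 1 overlapping Mir155 (chr16:84714140-84714204) by 1.64 and 2.35, and the last, beyond the gene, by 5.18 and 5.13. Unstimulated AhR-KO cells were lower at the member over Mir155 by a log2 difference of -0.81 ± 0.10 (SE, adjusted p = 1.31e-07).

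Genes of macrophage function were read through lists. The counts below stand beside these shares of all tested peaks. In AhR-KO 12.6% were lower and 9.95% higher without LPS, and 13.1% and 13.4% with LPS. LPS lowered 21.6% and raised 25.4% in WT, and 21.5% and 27.3% in AhR-KO. For the interaction the shares were 4.58% and 5.83%. Whether any list differs from these shares was not tested. The list of the Toll-like receptor 4 pathway also held the receptor genes Tlr2 and Tlr9. In this list 8 of 29 genes had 14 members: 1 fell and 4 rose with LPS in WT, and 2 and 4 in AhR-KO (1 fell without AhR-KO LPS replicate 3 or AhR-KO unstimulated replicate 1 or 2). In the genotype comparisons 0 were DARs without LPS, but 1 or 2 were higher on leaving out any of 7 libraries (2 without WT unstimulated replicate 1, and 1 when replicate 3 of AhR-KO LPS was left out, or AhR-KO unstimulated replicate 3, 4 or 6, or WT unstimulated replicate 4 or 5), and 1 was higher with LPS. No member was an interaction DAR (1 lower without AhR-KO unstimulated replicate 6). The median log2 difference with LPS was 0.26 in both genotypes, against -0.01 in WT and 0.05 in AhR-KO over all tested peaks. The member near Tlr2, a receptor for bacterial lipoproteins, rose by 1.08 ± 0.11 (SE, adjusted p = 7.59e-11) and 0.95 ± 0.10 (SE, adjusted p = 4.06e-10). The member named for Ticam2 went the other way with LPS, by -0.79 ± 0.11 in WT and -0.59 ± 0.10 in AhR-KO (log2 ± SE). Ticam2 was also the member higher in AhR-KO with LPS (0.77 ± 0.11).

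Of the inflammatory factors of the NF-kB, AP-1, STAT and IRF families, 11 of 38 genes had 21 members, of which 8 rose with LPS in either genotype. 1 fell in WT (2 without WT LPS replicate 1, 2 or 5 or WT unstimulated replicate 6) and 2 fell in AhR-KO. Medians were 0.33 and 0.29 (log2). In AhR-KO 1 was higher without LPS (0 without AhR-KO unstimulated replicate 1 or 2 or WT unstimulated replicate 3, 4 or 6). With LPS 1 was lower (2 without AhR-KO LPS replicate 1, 3, 5 or 6 or WT LPS replicate 3 or 4) and 1 higher, and the interaction gave 1 and 2. A member upstream of Nfkb1, which encodes the NF-kB subunit p50, held 2.77 to 3.71 CPM (median 3.47) in the WT unstimulated libraries, 2.44 to 3.34 (median 2.72) in AhR-KO unstimulated, 11.8 to 21.9 (median 17.8) in WT LPS and 19.8 to 26.9 (median 25.5) in AhR-KO LPS. LPS libraries lay above unstimulated ones in both genotypes, by 2.33 ± 0.12 (SE, adjusted p = 8.35e-18) in WT and 3.12 ± 0.12 (SE, adjusted p = 9.93e-22) in AhR-KO. A member near Fos, of AP-1, rose by 1.15 ± 0.08 and 1.10 ± 0.07 (log2 ± SE). Far from Jun, another AP-1 gene, a member was lower in AhR-KO with LPS by a log2 difference of -1.21 ± 0.17 (SE, adjusted p = 1.04e-06).

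Cytokines and chemokines had 14 members at 13 of 38 genes, and 3 fell and 7 rose with LPS in each genotype (medians 0.51 and 0.53). In AhR-KO 1 was lower without LPS (0 without AhR-KO unstimulated replicate 3 or WT unstimulated replicate 5) and 3 were higher (1 without AhR-KO unstimulated replicate 1, 2 or 5 or WT unstimulated replicate 1, 4 or 5). With LPS 0 were lower and 1 higher, and the interaction gave 0 and 2. The member 7097 bp from Il6, a central inflammatory cytokine, stayed under 1 CPM in unstimulated cells and held 0.662 to 0.874 CPM (median 0.850) in the WT unstimulated libraries, 0.410 to 0.932 (median 0.797) in AhR-KO unstimulated, 10.5 to 15.6 (median 12.6) in WT LPS and 21.2 to 33.8 (median 27.1) in AhR-KO LPS. No LPS library came near an unstimulated one. LPS raised it by 3.96 ± 0.16 (SE, adjusted p = 7.02e-21) in WT and 5.24 ± 0.15 (SE, adjusted p = 3.55e-25) in AhR-KO, and with LPS AhR-KO was higher by 1.10 ± 0.10 (SE, adjusted p = 2.43e-10). At Il1rn, the antagonist of the IL-1 receptor, LPS raised the member by 1.62 ± 0.11 and 2.56 ± 0.12 (log2 ± SE). At Pdgfb, a growth factor, it rose by 1.82 ± 0.09 and 1.65 ± 0.08.

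Feedback inhibitors of signalling had 23 members at 15 of 25 genes, of which 8 rose with LPS in each genotype, 2 fell in WT (1 without WT LPS replicate 6) and 4 in AhR-KO (medians 0.33 and 0.38). In the genotype comparison with LPS 0 were DARs, without LPS 1 was lower (2 without AhR-KO unstimulated replicate 4) and 2 higher (1 without WT unstimulated replicate 4), and the interaction gave 3 lower and 2 higher (1 higher without WT unstimulated replicate 6). The members near Tnfaip3, the A20 ubiquitin editor that restrains NF-kB (1.60 ± 0.13 and 1.77 ± 0.12, log2 ± SE), its partner Tnip1 (1.18 ± 0.08 and 1.01 ± 0.08) and Irak3, which dampens Toll-like receptor signals (0.89 ± 0.07 and 1.42 ± 0.07), all rose. A member at Dusp16, a MAP kinase phosphatase, was lower in unstimulated AhR-KO cells by a log2 difference of -0.96 ± 0.12 (SE, adjusted p = 8.92e-08).

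Classical AhR targets and partners had 7 members at 5 of 14 genes, among them 3 at Ahr, 1 at Ahrr and 1 at Tiparp. Genotype DARs were 1 lower and 1 higher in unstimulated AhR-KO cells and 1 and 3 under LPS, the lower 1 being the Ahrr member in both. The increases were at Ahr itself and, with LPS, at Tiparp, a known AhR target, with 0.64 ± 0.13 (SE, adjusted p = 1.37e-04), a call lost without AhR-KO LPS replicate 4 (0.57). With LPS 2 members fell and 3 rose in WT, and 1 fell (0 without AhR-KO LPS replicate 5 or AhR-KO unstimulated replicate 4) and 4 rose in AhR-KO, and the interaction gave 1 lower and 2 higher (1 higher without WT unstimulated replicate 6). LPS raised the Ahrr member by 1.55 ± 0.12 (SE, adjusted p = 8.50e-13) in WT and 0.82 ± 0.13 (SE, adjusted p = 2.22e-06) in AhR-KO. AhR core matches stood at 0.61 per kb in all wide distal peaks, and at 0.59 and 0.57 in those lower or higher in AhR-KO in both treatments. AhR long matches stood at 0.097, 0.127 and 0.090 per kb in the same order, and the difference was not tested.

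Eicosanoid synthesis and receptor genes, which make and sense prostaglandins and leukotrienes, had 21 members at 11 of 30 genes. LPS lowered 6 and raised 1 in WT and lowered 7 and raised 2 in AhR-KO, with medians of -0.24 and -0.33 (log2), and the interaction gave 1 lower and 0 higher. In AhR-KO 2 of the 21 were lower without LPS and 2 with LPS, where 12.6% and 13.1% of all tested peaks were lower. In each case 1 was at Ptgs1, the COX-1 gene, and 1 at Hpgds, the haematopoietic prostaglandin D synthase gene. The member 18449 bp upstream of Hpgds held 7.91 to 11.8 CPM (median 10.3) in the WT unstimulated libraries, 5.00 to 7.16 (median 5.65) in AhR-KO unstimulated, 3.02 to 4.31 (median 3.52) in WT LPS and 1.81 to 2.55 (median 2.19) in AhR-KO LPS. Within each treatment the genotypes did not overlap and AhR-KO was the lower, by a log2 difference of -0.85 ± 0.11 (SE, adjusted p = 5.13e-08) without and -0.71 ± 0.12 (SE, adjusted p = 9.45e-06), and lower with LPS by a log2 difference of -1.53 ± 0.11 (SE, adjusted p = 1.09e-14) in WT. At Ptgs1 the difference was -0.71 ± 0.07 (SE, adjusted p = 6.69e-10) without LPS. With LPS it was -0.59 ± 0.07 (SE, adjusted p = 2.70e-08), a call lost without AhR-KO LPS replicate 2 or 3 or WT LPS replicate 1 or 2 (-0.53 to -0.58), and also with RLE, DESeq2 and the replicate block. The list also gained a member called higher in AhR-KO with LPS on leaving out AhR-KO LPS replicate 1, 2 or 6 or WT LPS replicate 2, 3 or 5. The member at Alox5ap, the 5-lipoxygenase partner, fell with LPS by a log2 difference of -0.81 ± 0.06 and -1.17 ± 0.06, and the 1 at Pla2g4a, the phospholipase that frees arachidonic acid, rose by 1.27 ± 0.08 and 1.29 ± 0.08 (log2 ± SE).

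Lineage and identity factors of macrophages formed the largest list, with 52 members at 20 of 35 genes. Genotype DARs were 1 lower and 6 higher in unstimulated AhR-KO cells and 5 and 8 under LPS, 4 of the lower ones being those of Fli1. LPS lowered 5 and raised 9 in WT and lowered 11 and raised 11 in AhR-KO (medians 0.03 and -0.15). The interaction gave 3 lower (5 when replicate 3 of AhR-KO LPS or replicate 6 of WT unstimulated was left out) and 2 higher. Members at Tfec (0.69 ± 0.08 without and 0.63 ± 0.08 with LPS), a factor of the MiT family, Nfil3 (0.97 ± 0.12 and 0.79 ± 0.11), Runx1 (1.09 ± 0.14 and 0.88 ± 0.12), of haematopoiesis, and Zeb2 (0.72 ± 0.10 and 0.95 ± 0.10), a repressor active in tissue macrophages, were higher in AhR-KO in both treatments (log2 ± SE). These 4 lay between 17250 and 575264 bp from the TSS that names them.

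Alveolar macrophage identity genes had 18 members at 12 of 26 genes, of which LPS lowered 7 in WT and 10 in AhR-KO and raised 0 in either (1 in WT without WT LPS replicate 6). The medians were -0.47 and -0.72, against -0.01 and 0.05 over all peaks. Chil3, a chitinase-like protein, had -2.36 ± 0.26 (SE, adjusted p = 2.98e-08) in WT, the mannose receptor gene Mrc1 -0.77 ± 0.10 (SE, adjusted p = 8.76e-09), and members at the proton pump subunit gene Atp6v0d2 had -0.79 ± 0.06 and -0.73 ± 0.08 (log2 ± SE). In the genotype comparisons 1 was lower and 3 higher in unstimulated AhR-KO cells, and under LPS there was 1 each way (2 higher on leaving out replicate 3 of AhR-KO LPS or replicate 4 of WT LPS). The interaction gave 2 lower (1 without WT LPS replicate 3) and 0 higher.

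Phagocytic and scavenger receptors had 11 members at 7 of 27 genes, with 0 lower and 4 higher in unstimulated AhR-KO cells (2 higher without AhR-KO unstimulated replicate 2 or WT unstimulated replicate 1, and 1 lower without AhR-KO unstimulated replicate 3 or WT unstimulated replicate 1 or 6). With LPS 0 were lower and 2 higher, LPS lowered 2 and raised 3 in WT and lowered 3 and raised 4 in AhR-KO, and the interaction gave 1 lower and 2 higher. A member of Mertk, the receptor for dying cells, held 6.05 to 7.37 CPM (median 6.99) in the WT unstimulated libraries, 11.7 to 17.3 (median 13.9) in AhR-KO unstimulated, 3.63 to 5.10 (median 4.32) in WT LPS and 4.66 to 5.62 (median 5.16) in AhR-KO LPS. AhR-KO libraries lay above WT ones without LPS. Of 3 Mertk members, 2 were higher by 1.03 ± 0.10 and 0.73 ± 0.09 in unstimulated AhR-KO cells and fell with LPS, by a log2 difference of -0.66 ± 0.10 and -0.89 ± 0.09 in WT (log2 ± SE). At Cd36, which takes up lipids, AhR-KO was higher with LPS by 1.44 ± 0.15 (SE, adjusted p = 6.33e-10). Clec4e, the lectin Mincle, rose with LPS by 2.99 ± 0.16 and 3.42 ± 0.15.

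Lipid handling and lysosome genes had 19 members at 12 of 27 genes, some of them shared with the 2 lists above. In AhR-KO 0 were lower and 4 higher without LPS (2 without AhR-KO unstimulated replicate 2 or WT unstimulated replicate 6) and 3 were higher with LPS. LPS lowered 4 and raised 6 in WT and lowered 6 and raised 5 in AhR-KO, and the interaction gave 1 in each direction. Its lower count was 3 without AhR-KO unstimulated replicate 3 or 4, and 2 on leaving out AhR-KO unstimulated replicate 6, AhR-KO LPS replicate 5, WT unstimulated replicate 4 or 5, or WT LPS replicate 1 or 2. A member of the cholesterol exporter gene Abca1 was higher in AhR-KO cells, by 0.73 ± 0.13 (SE, adjusted p = 2.65e-05) without and with LPS by 0.67 ± 0.11 (SE, adjusted p = 2.60e-06). Actin, adhesion and motility genes had 21 members at 13 of 30 genes: LPS lowered 0 (1 without WT LPS replicate 6) and raised 5 in WT and lowered 4 and raised 5 in AhR-KO. In AhR-KO 2 were higher without LPS and 0 lower (2 lower without AhR-KO unstimulated replicate 3 or WT unstimulated replicate 3 or 5, and 1 without AhR-KO unstimulated replicate 5). With LPS 2 were lower and 1 higher, and the interaction gave 1 in each direction. With LPS a member of Dock8, a regulator of cell migration, was lower in AhR-KO by a log2 difference of -0.96 ± 0.07 (SE, adjusted p = 7.82e-13).

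The macrophage markers had 4 members at 2 of 6 genes, of which 2 were higher in unstimulated AhR-KO cells and 0 changed by genotype with LPS, while LPS lowered 2 in WT cells and 3 in AhR-KO cells, and the interaction gave 1 lower. Markers of other cells had few members: 1 at Ccr7, 2 at neutrophil markers, 1 at mast cell markers, 2 at the fibroblast gene Dcn and 0 at B cell, T cell and erythroid markers. At Ccr7, which guides migrating dendritic cells, the levels were 8.03 to 10.7 CPM (median 8.86) in the WT unstimulated libraries, 8.22 to 9.48 (median 8.39) in AhR-KO unstimulated, 24.9 to 82.5 (median 56.6) in WT LPS and 13.7 to 44.2 (median 19.5) in AhR-KO LPS. The LPS libraries spread widely there and lay above the unstimulated ones, and AhR-KO was lower with LPS by a log2 difference of -1.32 ± 0.27 (SE, adjusted p = 3.52e-04), although the libraries of both genotypes overlapped. Its interaction of -1.24 was called on leaving out replicate 3 of AhR-KO LPS and replicate 3 or 5 of WT LPS, each alone, but was lost without any 1 of the other 21 libraries (-1.57 to -1.09 over all 24). The dendritic cell markers other than Ccr7 (3 with a TSS peak) summed to 9.78 to 12.1 CPM per kb in AhR-KO LPS and 14.1 to 21.6 in WT LPS, and their part in the result was not tested. By gene, the Flt3 TSS peak was lower in AhR-KO, by -1.16 without and -1.29 with LPS (log2, both DARs). The Zbtb46 TSS peak had 0.21 and -0.19 and was not called, and the Cd209a TSS peak was not tested. At Dcn LPS raised the 2 members by 2.57 ± 0.14 and 1.55 ± 0.15 in WT (log2 ± SE), and 1 was lower in AhR-KO with LPS (-0.73 ± 0.13). Dcn itself had no peak over its TSS. The neutrophil and mast cell members were DARs in none of the comparisons, except that 1 neutrophil member was lower in unstimulated AhR-KO cells without AhR-KO unstimulated replicate 4 or WT unstimulated replicate 2 or 4. A Dcn member was likewise lower without AhR-KO unstimulated replicate 1, 2 or 3.

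In 185 members (5.29%, against 4.33% of all tested peaks) the log2 difference stayed under 0.2 in all 4 comparisons of 2 groups. The most constant was upstream of Elovl5 (chr9:77910085-77912159), with 73.3 to 85.1 CPM (median 78.7) in the WT unstimulated libraries, 72.3 to 86.4 (median 75.8) in AhR-KO unstimulated, 71.5 to 85.98 (median 77.9) in WT LPS and 71.1 to 82.6 (median 78.3) in AhR-KO LPS. All 4 groups overlapped there, and the 4 log2 differences were -0.03 ± 0.05, -0.01 ± 0.05, 0.00 ± 0.05 and 0.02 ± 0.05 (± SE). Snx5, a sorting nexin gene, Clip4, the thromboxane synthase gene Tbxas1 and Atp6v1c1, a proton pump subunit gene, gave the next most constant members. At Tbxas1 the levels were 12.3 to 15.95 CPM (median 13.6) in the WT unstimulated libraries, 12.5 to 14.8 (median 13.8) in AhR-KO unstimulated, 12.3 to 16.6 (median 13.4) in WT LPS and 11.6 to 16.5 (median 14.2) in AhR-KO LPS, and the groups overlapped.

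Motif letters were counted in every member on both strands. AP-1 matches stood at 0.66 per kb in the 675 members raised by LPS in both genotypes, 0.48 in the 1471 never called and 0.35 in the 392 lowered in both, with 0.66 in other distal peaks. Matches to PU.1 ran the other way, 1.23 per kb in raised and 1.61 in lowered members, and NF-kB letters stood at 0.20 and 0.13. In the central 300 bases an AP-1 match was present in 17.5% of raised and 8.67% of lowered members, and in 17.9% of all autosomal peaks. PU.1, C/EBP, NF-kB and ISRE matches were in 37.4%, 15.6%, 4.82% and 10.8% of all autosomal central windows, and in 30.1%, 14.4%, 4.69% and 10.3% of those of wide distal peaks. The AhR core was in 14.8% of the members' central windows (2.69% for the long form, which contains the core) and in 16.1% and 2.87% of all autosomal ones. Peaks over a TSS, which are rich in CpG, held 1.99 AhR core matches per kb, against 0.61 in wide distal peaks and 0.54 in other distal peaks. GC content was 45.4% at the median in members and 45.9% in other distal peaks, and 17.5% and 13.4% of bases were repeat-masked. These densities are descriptions of letters, given without a test.

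**Figure D5:**
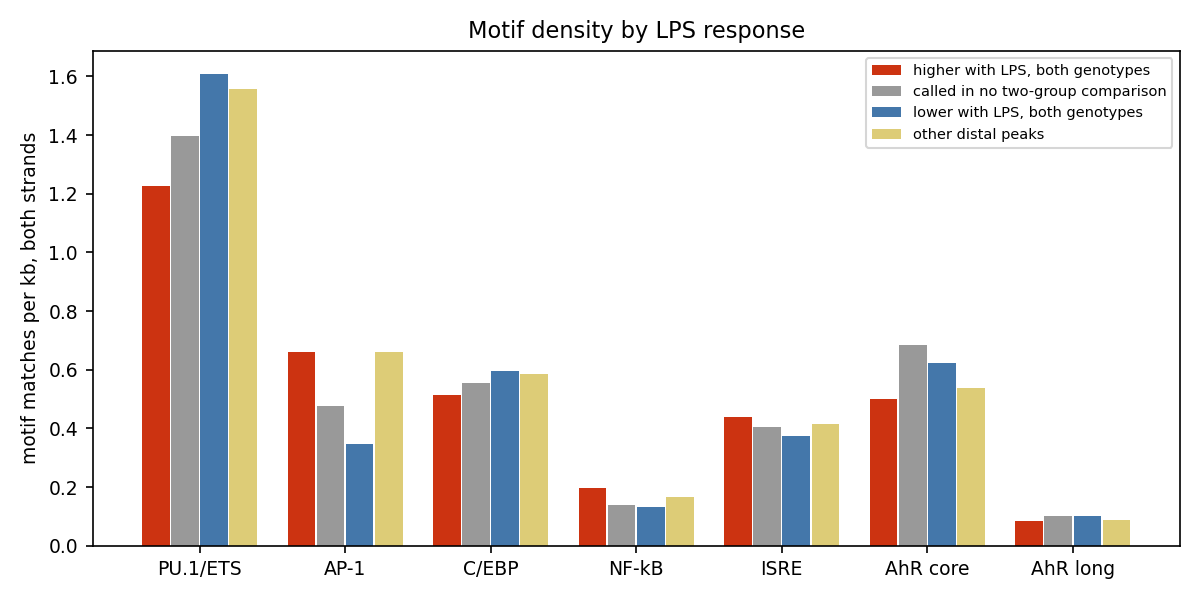
Matches per kb (y axis) to 7 motifs (x axis) in wide distal peaks raised by LPS in both genotypes (n = 675), never called (n = 1471) and lowered by LPS in both (n = 392), and in other distal peaks (n = 145033). AP-1 is at 0.66, 0.48, 0.35 and 0.66 in this order.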

How the data were processed

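ATAC-seq was measured in 24 mouse BMDM libraries. The authors processed reads with the nf-core atacseq pipeline (mm10), called broad peaks per library with MACS2 and deposited counts of reads per consensus peak (featureCounts 2.0.1, minimum overlap fraction 0.2, reads counted in every overlapping peak). Per the file headers, the broad peak files hold, besides the positions used here, a score, a signal (fold enrichment) and −log10 p and q columns, of which the authors' −log10 q served in an alternative only.

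Counts were tested as deposited with edgeR 4.0.16 (R 4.3.3): filterByExpr by group, TMM, trended dispersion, robust quasi-likelihood fit over all 24 libraries, Benjamini-Hochberg adjustment over 174193 peaks. Alternatives were DESeq2 1.42.0, other scalings and filters, a replicate block, fold 2, lengths of 1500 and 3000 bp, 10 kb, and each library left out. The fit was tested on simulated data with a single dispersion of 0.015 for all peaks. It called 31 of 67 members changed by a fold of 1.5 and 67 of 67 changed by a fold of 2. Total counts of 8.54 to 34.6 M limit the precision of low peaks.

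Named members were the 5 longest, the 5 highest per kb, the 5 DARs with the smallest p per comparison and direction, up to 4 DARs per gene list and comparison, the genes with most members, those nearest the length limit and the 5 most constant. Peaks nearest the distance limit, members of stretches and all Ahr members were added after their values were seen. Members and the 19 gene lists were chosen with earlier results of these data known. Positions follow GENCODE vM21 and GRCm38.p6. A few results are not reported here.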

Additional observations from a re-analysis of the deposited data

Results flagged for a closer look

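Of 224 groups of 6 libraries examined for named values, 13 held a library far from the other 5, where chance gives about 1 in 20. At Zfp978, CPM were 15.7 in WT unstimulated replicate 5 and 15.1 in AhR-KO unstimulated replicate 2. At Elovl5, AhR-KO unstimulated replicate 2 had 86.4. At Acod1, WT unstimulated replicate 5 had 105.5 and WT LPS replicate 3 had 128.2. At Tiam1, AhR-KO unstimulated replicate 6 had 15.6. At Ets1, WT LPS replicate 2 had 28.2. At Inhba, AhR-KO LPS replicate 5 had 61.9, below the rest. At Fam110b, replicate 3 had 40.8 in AhR-KO unstimulated and 13.4 in AhR-KO LPS. At Fli1 (chr9:32507416-32511018), WT LPS replicate 6 had 52.1, below the rest. At Snx5, WT LPS replicate 3 had 19.8. The mean number of bases under broad peaks per member was 1016 in AhR-KO unstimulated replicate 5, the lowest of its group.

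The genotype difference with LPS differed from that without LPS, by the interaction test in edgeR, at 388 wide distal peaks. Positive interactions, on the log2 scale, were 0.78 at Lsm6, 0.79 at Klhl25, 0.67 at Slc24a2, 0.63 at Plekhf1 (0.58, no longer called, without WT unstimulated replicate 1), 1.57 at Agr3, 1.82 and 0.74 at Ahr (the latter 0.63 and not called without WT unstimulated replicate 6), 1.18 at Axin2, 0.82 at Itgav, 1.84 at Pla1a, 1.503 at Pgm1 and 1.85 at Mob3b. Negative ones were -0.96 at Ets1, -0.65, -0.75 and -0.81 at Fli1, -0.70 at Rcsd1, -0.78 at Selenof, -1.08 at Hs3st3b1 and -0.82 at Ggta1. Ggta1 was also called higher in unstimulated AhR-KO cells (0.59), a call lost without AhR-KO unstimulated replicate 1 or 2 or WT unstimulated replicate 1, 2, 3 or 4 (0.55 at the lowest).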

How the results depend on the processing

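Counts of DARs among wide distal peaks stayed within 1.5 times under RLE, library totals, no filter, DESeq2, the replicate block and a distance of 10 kb. The split into lower and higher DARs moved with RLE and DESeq2, as given with the DAR counts. They moved where thresholds or the rule changed. In the order genotype unstimulated, genotype with LPS, LPS in WT, LPS in AhR-KO and interaction, a fold of at least 2 left 106, 159, 580, 777 and 78 DARs, or 58 lower to 48 higher, 65 to 94, 146 to 434, 241 to 536 and 23 to 55, so that the balance of the unstimulated genotype comparison turned (240 to 275 at a fold of 1.5). A length of 1500 bp or more gave 1711, 1862, 3986, 4585 and 1142 DARs, and 3000 bp or more gave 61, 77, 143, 189 and 60. The number of members was 10057 at 1500 bp or more and 411 at 3000 bp or more, and their genes numbered 5251 and 380. More than 10 kb from every TSS left 2925 members of 2138 genes, and by the gene body in place of the nearest TSS there were 1405 genes. Leaving out each library in turn gave 472 to 545, 563 to 631, 1258 to 1307, 1543 to 1579 and 365 to 413 DARs. The share of counts with all distal peaks as the denominator was 9.21%, 9.46%, 9.20% and 9.30% over the libraries of WT and AhR-KO unstimulated and of WT and AhR-KO with LPS, in this order. In that order, with 10% of a member covered the width counts were 2906, 3077, 3298 and 3270 members, with 90% covered 158, 235, 551 and 453, and with broad peaks of −log10 q of at least 5 the last 3 groups had 1194, 1769 and 1526. No named member reversed direction. At named members, DESeq2 and RLE each ended 3 calls, library totals ended 5 and added 2, no filter added 1, and the cause was not tested. The replicate block gave 505, 601, 1276, 1558 and 391 DARs, ended 6 calls at named members and added 1. Nothing in the labels pairs libraries by number, and not every same-number pair exceeded 0.1, so the fit without the block was kept: same-number correlations of deviations were 0.04 to 0.29 in WT (mean 0.19, against -0.04 for other numbers, 5 of 6 over 0.1, 7 of 12 libraries best with their own number) and 0.00 to 0.17 in AhR-KO (mean 0.08, against -0.02, 2 of 6 and 6 of 12). Low members are limited by depth, which was lowest in WT unstimulated replicate 5.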

Other observations

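Inhba had 6 wide distal peaks, of which 5 rose with LPS in WT and 6 in AhR-KO, with log2 differences of 0.01 to 2.89 and 1.06 to 3.08. In AhR-KO 2 were higher without LPS and 3 with LPS, and the genotype difference with LPS ranged from 0.42 to 1.09 over the 6. Sox5, a developmental transcription factor, had 6 members, of which 3 rose with LPS in WT and 4 in AhR-KO and 2 were lower in unstimulated AhR-KO cells, down to -1.20 on the log2 scale. Gsap had 6, with 3 higher in unstimulated AhR-KO cells and none in AhR-KO with LPS. The 8 members of Klf6 spanned chr13:5443388-6194043, and 3 rose with LPS in WT and 2 in AhR-KO.

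Some stretches of adjoining members moved alike in a comparison and others did not. 3 members in introns of Pmepa1, named for the nucleic acid sensor gene Zbp1, had interactions of 0.67, 0.68 and 0.70 on the log2 scale. At Chd2 the 3 members had LPS differences in AhR-KO of -1.87, -0.29 and -0.76. At Tmem123 and Birc2 the genotype differences with LPS were -0.86, -1.36 and -0.73, whereas the LPS differences in WT were -0.24, 1.61 and -0.95. At Ctsc, a lysosomal protease gene, 3 neighbouring intronic members had genotype differences without LPS of 0.47, -0.12 and 0.76. At Cd9, a tetraspanin gene, LPS differences in AhR-KO were -1.08, 0.17 and 0.13. In Tbc1d4, a regulator of glucose transporter traffic, 1 of 3 members was lower in AhR-KO in both treatments (-1.11 and -1.35) and the other two were not called there. These stretches were picked after their values had been seen, and their values are descriptions.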
